A study of Mus musculus with 68 samples.

Results

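The response of fibroblasts of the F1 cross C57BL/6J x CAST/EiJ (xCAST) to tunicamycin (TM) was measured by RNA-seq in 5 of the 68 libraries of the study. These were 2 control libraries (replicates 2 and 3) and 3 TM libraries (replicates 1 to 3), chosen by their labels. The cells were primary mouse embryonic fibroblasts (MEFs) that carry 1 genome from a C57BL/6J (B6) mother and 1 from a CAST/EiJ (CAST) father. TM-treated cells received 2 ug/ml of TM and control cells 0.1% DMSO, each for 4 h. MEFs of the B6 and CAST parents were treated in the same way, with 2 control and 2 TM libraries of each. The B6 mother is also shared by the other 4 crosses, with 129S1Sv/ImJ (x129), NOD/ShiLtJ (xNOD), NZO/H1LtJ (xNZO) and WSB/EiJ (xWSB) fathers, which had 12 control and 11 TM libraries together. By the methods of the study, the MEFs of a genotype were a mix of cells from several female embryos of a single litter. The replicates are therefore cultures of the same mix, and the p-values below measure the spread between those cultures.

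TM blocks the first step of N-linked glycosylation, so that misfolded glycoproteins pile up in the endoplasmic reticulum (ER). The cell answers with the unfolded protein response (UPR), which is started by the sensors Ire1 (gene Ern1), Perk (gene Eif2ak3) and Atf6. Ire1 splices the mRNA of the transcription factor Xbp1, Perk raises the translation of Atf4, which induces CHOP (gene Ddit3), and cleaved Atf6 enters the nucleus. Their targets are the chaperones that fold proteins in the ER, the machinery that sends misfolded proteins to the proteasome, and genes of amino acid supply and cell death. The UPR is also known to activate NF-kB, which drives chemokines in fibroblasts.

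Reads on genes ranged from 7790941 in TM replicate 1 to 22513762 in TM replicate 2, over 12803 genes. The values are the authors' normalized signal, which is reads per gene relative to the scaled size of the library and is not divided by gene length, so that levels of different genes are not compared. All 12 fibroblast markers were listed, with summed signal of 33890 to 35140 in control and 21460 to 31150 in TM libraries. Of 14 myeloid markers 5 were listed (the other 9 had no line in the table), at a summed signal of 15.6 to 17.6 in control and 11.1 to 13.8 in TM libraries, and no marker of either list was called. Of the markers of endothelial, epithelial, skeletal muscle and neural cells, each list summed to at most 10.45 in any xCAST library. In bulk samples a lower value can stand for fewer cells of a type or for less RNA per cell, and these cannot be told apart. The part of cell composition in the results below was not tested. TM replicate 3 stood somewhat apart, with a correlation across genes of 0.981 and 0.982 with the other TM libraries, which correlated at 0.987 with each other.

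TM was compared with control on log2(signal + 0.1) with limma over the 12282 genes with a signal of at least 0.5 in at least 2 libraries. This scale understates the change of genes with low signal. Called genes had a change of 1.5 fold or more and an adjusted p (Benjamini-Hochberg) below 0.01. By this rule 309 genes (2.52% of those tested) were induced and 147 (1.2%) lowered. Every TM library lay above every control in all 309 induced genes and below every control in all 147 lowered genes. Over all genes tested, 21.1% had every TM library above and 25.7% every TM library below the controls. The called genes were chosen on these same libraries, so their full separation is a description and nothing is read from it. The median log2 change was 1.16 for induced and -1.07 for lowered genes, against -0.03 over all genes tested. Of the induced genes 200 rose by at least 2 fold and 52 by at least 4 fold, and 89 lowered genes fell by at least 2 fold. The counts depended on single libraries. There were 117 induced and 14 lowered genes without control replicate 2, 128 and 20 without control replicate 3, 103 and 29 without TM replicate 1, 136 and 30 without TM replicate 2, and 873 and 724 without TM replicate 3. Of the 309 induced genes 88 were called in each of these fits, and of the 147 lowered genes 7.

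Promoters of the called genes were searched for sequences that UPR factors are known to bind, and the matches are shown here because these sequences are the textbook link between the sensors and the chaperones. The ER stress response element (CCAAT, 9 bases, CCACG) is bound by Atf6 and Xbp1 together with NF-Y. Promoters of RefSeq (build GRCm38.p6), from 250 bases before to 50 bases after the start of transcription, were searched on both strands. Of the 242 induced genes with a promoter in that table, 10 (4.13%, 95% Wilson interval 2.26 to 7.44) held this element, as did 0 of 112 lowered genes (upper Wilson bound 3.32%) and 16 of all 9594 tested genes with a promoter (0.167%). The 10 genes, named here for the match after their values were seen, encode the chaperones Hspa5, Hsp90b1, Creld2, Dnajc3, Calr and Canx, the disulfide isomerase Pdia6, the degradation factors Derl3 and Syvn1, and the zinc finger protein Zfp57. A match is a description of the letters and does not show that a factor bound there, and no match says only that these letters are not in this window. Each site is given below with its place in the genome and the strand it is read from, and the capitals mark the bases that define the element.
Derl3, chr10:75893242-75893260 (- strand): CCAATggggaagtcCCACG
Hspa5, chr2:34772025-34772043 (+ strand): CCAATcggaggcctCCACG
Creld2, chr15:88819520-88819538 (- strand): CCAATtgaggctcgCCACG
Hsp90b1, chr10:86705638-86705656 (- strand): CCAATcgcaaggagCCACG
Hsp90b1, chr10:86705533-86705551 (+ strand): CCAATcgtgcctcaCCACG
Syvn1, chr19:6046532-6046550 (+ strand): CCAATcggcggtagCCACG
Zfp57, chr17:37002492-37002510 (- strand): CCAATgcctgaatgCCACG
Dnajc3, chr14:118937827-118937845 (+ strand): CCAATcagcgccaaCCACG
Pdia6, chr12:17266491-17266509 (+ strand): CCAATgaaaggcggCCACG
Calr, chr8:84847075-84847093 (+ strand): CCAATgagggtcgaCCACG
Canx, chr11:50325800-50325818 (- strand): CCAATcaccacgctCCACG
Hspa5, whose product Bip is the main Hsp70 chaperone of the ER, is shown with the 250 bases before its start at chr2:34771840-34772089 (+ strand). The capitals mark the element, from 65 to 47 bases before the start.
Hspa5: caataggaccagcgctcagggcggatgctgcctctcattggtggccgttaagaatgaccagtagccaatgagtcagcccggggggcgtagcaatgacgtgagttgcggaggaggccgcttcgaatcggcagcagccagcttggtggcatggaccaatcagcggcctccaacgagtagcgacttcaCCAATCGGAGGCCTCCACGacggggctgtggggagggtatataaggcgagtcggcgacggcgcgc
Herpud1, a membrane protein of ER-associated degradation, is shown in the same way at chr8:94386179-94386428 (+ strand). The capitals mark a C/EBP-ATF element (TGATG, 1 base, AA), the kind of sequence bound by Atf4 and CHOP, which lies on the opposite strand from 112 to 105 bases before the start.
Herpud1: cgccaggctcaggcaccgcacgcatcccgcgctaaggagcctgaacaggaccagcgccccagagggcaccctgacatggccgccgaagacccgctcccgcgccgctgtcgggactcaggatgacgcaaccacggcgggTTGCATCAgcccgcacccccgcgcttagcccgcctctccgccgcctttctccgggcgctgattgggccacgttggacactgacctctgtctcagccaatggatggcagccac

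The same Herpud1 promoter also holds, in lower case above, the ER stress response element II (ATTGG, 1 base, CCACG) from 52 bases before the start. This second element was found in 3 of the 242 induced promoters (1.24%) and in 8 of all 9594 (0.0834%). The C/EBP-ATF element was found in 25 induced promoters (10.3%), in 0 lowered ones and in 260 of all (2.71%). Among the 22 ATF4 and CHOP targets with a promoter, 7 held it, namely Atf3, Chac1, Fgf21, Nupr1, Slc7a11, Trib3 and Vldlr, and each of these was induced. Among the cytosolic tRNA synthetases it was found in 5 of 12, of which Tars was induced and Aars, Gars, Iars and Yars were not called. Among the genes of amino acid and one-carbon synthesis it was found in Got1, which was induced, and in Asns and Pycr1, which were not called. An NF-kB element (GGGA, 1 base, TTTCC) was found in 7 induced promoters (2.89%), 1 lowered promoter (0.893%) and 49 of all (0.511%). The 7, again named for the match, were those of the chemokines Cxcl1, Cxcl2 and Cxcl3, the inhibitor Nfkbia, the subunit Nfkb2, the deubiquitinase Cyld and Neurl3. For Cxcl2, Cxcl1 and Nfkbia, whose values are given below, the sites are shown with the defining bases in capitals.
Cxcl2, chr5:90903802-90903811 (+ strand): GGGAaTTTCC
Cxcl1, chr5:90891174-90891183 (+ strand): GGGAaTTTCC
Nfkbia, chr12:55492667-55492676 (+ strand): GGGAaTTTCC

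Unfolded proteins are held in the ER by chaperones until they fold. In the control libraries Hspa5 (ENSMUSG00000026864) had a signal of 632.1 and 615.1, and in the TM libraries of 5130, 4987 and 6473. The 3 TM values were far above both controls, and the log2 change was 3.14 (SE 0.16, adjusted p = 3.93e-07, limma). Sdf2l1, a co-factor of Bip, rose from 10.5 and 9.65 to 81.4, 97.4 and 113.8, a change of 3.25. Dnajb9, a co-chaperone that acts back on Ire1, rose from 8.97 and 10.4 to 85.05, 100.5 and 51.7, a change of 2.97, with TM replicate 3 the lowest of the TM libraries but above the controls. Creld2 rose by 2.82. Of the 22 ER chaperones and co-chaperones tested, 11 were induced (11 by edgeR and 13 by DESeq2), with a median change of 0.81, and 20 of the 22 lay above 0. The collagen chaperone Serpinh1 (0.01) and the prolyl isomerase Fkbp10 (-0.30) were among the members that did not pass.

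Disulfide bonds are formed in the ER by isomerases that Ero1 oxidases keep oxidized. Of these 16 genes 4 were induced, with a median change of 0.45. The oxidase Ero1lb rose from 3.47 and 4.62 to 17.2, 19.3 and 14.6, a change of 2.05 (SE 0.20, adjusted p = 7.98e-05, limma). The isomerases Pdia4 (1.55), Pdia6 (1.30) and Pdia3 (1.10) rose too, while the second oxidase Ero1l had a change of 0.57 that did not pass. Without TM replicate 3 the count was 7.

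Proteins that fail to fold are drawn back through the ER membrane and degraded. Herpud1 (ENSMUSG00000031770) rose from 58.8 and 56.7 to 1004, 953.9 and 923.6, a log2 change of 4.05 (SE 0.14, adjusted p = 1.62e-08, limma). The TM libraries lay close together and far above both controls. Derl3, a membrane protein of the retrotranslocation channel, had 10 reads in both controls together and 342 in the TM libraries. Its signal rose from 0.116 and 0.402 to 8.30, 6.45 and 4.98, and the ratio of its reads, scaled by library size, was 23.7 (95% interval 12.7 to 49.9, counting error only). The ubiquitin ligase Syvn1 (1.84) and its partner Sel1l (1.47) rose as well. In all, 6 of 28 genes of ER-associated degradation were induced, with a median of 0.23. The ATPase Vcp, which extracts the proteins, was at 0.20 and did not pass.

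The sensors stood lower in the order of changes. Xbp1, the target of Ire1, rose from 100.3 and 93.1 to 218.5, 234.1 and 217.1, a change of 1.21 (SE 0.14, adjusted p = 0.000349, limma). Its call was lost without control replicate 3, at an adjusted p of 0.01015. Ern1 had a signal of 37.3 and 38.8 in control and of 58.8, 45.9 and 43.0 in TM libraries, a change of 0.36 (adjusted p = 0.199, limma). Eif2ak3 (0.41, adjusted p = 0.122) and Atf6 (0.22, adjusted p = 0.415) did not pass in this limma fit either. The list of the sensors, the factors that process them and Xbp1 held 15 genes, with a median change of 0.14. Xbp1 alone passed (6.67%, against 2.52% of all genes tested), and none of the sensors did.

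The genes that build, transfer and trim the N-linked glycan, on which TM acts, were tested next. Dpagt1 encodes the enzyme that TM inhibits, and its signal was 32.1 and 30 in control and 34.1, 36.7 and 18.5 in TM libraries. TM replicate 3 was the lowest of the 5 libraries and the other TM libraries were the highest, and the change of -0.12 (adjusted p = 0.793, limma) became 0.19 without TM replicate 3. Of the 32 genes of N-glycosylation and hexosamine synthesis, Gnpnat1 of the hexosamine pathway was induced (1.10), a call that was lost without any 1 library other than TM replicate 3. The median change was 0.12, and without TM replicate 3 the count was 4. The share of 3.12% induced was near the 2.52% of all genes, so nothing is read from it for the list. The 38 genes of translocation and vesicle transport had a median of 0.16, with 28 of them above 0. Of these limma called 0 induced, edgeR 1 and DESeq2 3, and 12 were higher at an unadjusted p below 0.05. Without TM replicate 3 limma called 6.

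The Perk branch is read from the targets of Atf4 and CHOP, of which 15 of 24 were induced, with a median of 1.22. Ddit3 (ENSMUSG00000025408) rose from 27.8 and 25.03 to 390.7, 439.0 and 622.9, a log2 change of 4.16 (SE 0.19, adjusted p = 1.86e-07, limma). The growth arrest gene Gadd45a rose from 3.53 and 4.02 to 58.9, 66.9 and 78.0, a change of 4.13. Atf3, a repressor of stress genes, rose from 1.85 and 1.76 to 26.9, 22.2 and 31.7, a change of 3.81. In all of these genes TM replicate 3 was the highest library. The hormone Fgf21 rose by 2.79 from a signal near 0.35, and the pseudokinase Trib3 by 2.29. Atf4 itself rose from 252.9 and 235.9 to 500.4, 577.5 and 578.7, a change of 1.17 (SE 0.15, adjusted p = 0.00057, limma), and missed the threshold without control replicate 3 (adjusted p = 0.01346). The pro-apoptotic Bbc3 (0.13) and Bcl2l11 (0.06) and the death receptor Tnfrsf10b (-0.07) did not pass.

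Atf4 is also known to drive amino acid supply. Of 18 genes of amino acid and one-carbon synthesis 5 were induced (median 0.31), among them Cth (0.97), Psph (0.97) and Gpt2 (0.91). Asparagine synthetase, Asns, was at 0.70 and did not pass (adjusted p = 0.0166, limma). Of 15 amino acid transporters 5 were induced (median 0.43), with Slc7a2, a carrier of cationic amino acids, at 1.61, the cystine carrier Slc7a11 at 1.48 and its partner chain Slc3a2 at 1.08. Of 20 cytosolic tRNA synthetases 5 were induced (median 0.61), with Cars at 0.97, Tars at 0.84 and Wars at 0.82, and 19 of the 20 lay above 0. Of 17 mitochondrial tRNA synthetases limma and edgeR called 0 induced and DESeq2 1 (median 0.03), and 2 were higher at an unadjusted p below 0.05. Without TM replicate 3 limma called 2. These counts rested on few libraries. The counts for synthesis and for cytosolic synthetases were 0 without control replicate 2, control replicate 3, TM replicate 1 or TM replicate 2, and 7 and 8 without TM replicate 3. Those for the transporters were 0, 2, 1 and 1 without these 4 libraries, and 6 without TM replicate 3. With a prior variance that had no trend the counts for synthesis, transporters and cytosolic synthetases were 0, 1 and 0, and with the replicate block they were 2, 3 and 3. The calls of Gpt2 and Wars were among those lost under both.

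**Figure D1:**
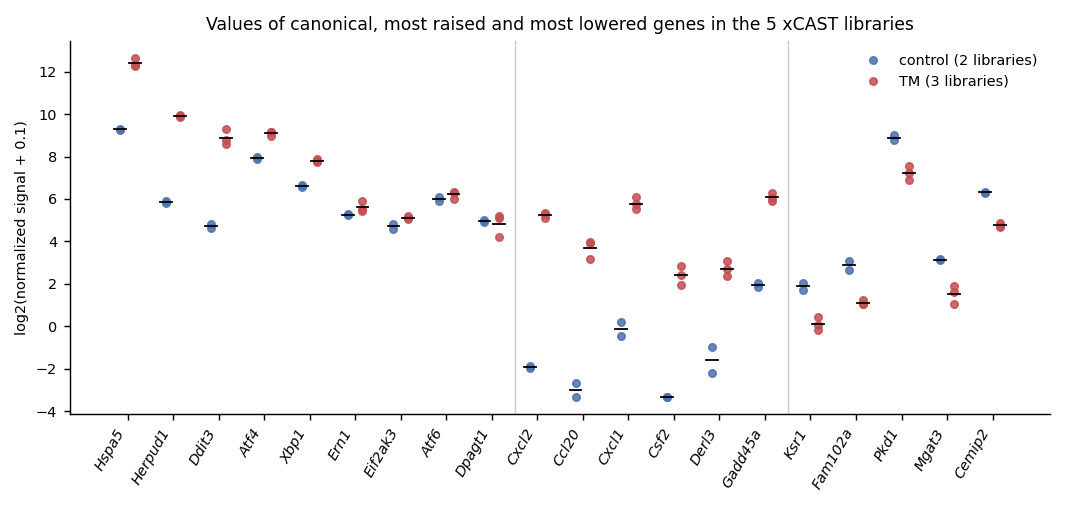
Log2(normalized signal + 0.1) of 20 genes (x axis) in the 2 control libraries (blue) and 3 TM libraries (red) of xCAST, with a bar at each mean. Vertical lines separate the canonical UPR genes, further induced genes with large rises and lowered genes with large decreases. The TM points lie far above the controls in Hspa5, Herpud1 and Ddit3, below them in the 5 genes on the right, and among them in Dpagt1.

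Chemokines and cytokines held the 4 largest changes of all genes tested. The neutrophil attractant Cxcl2 (ENSMUSG00000058427) had a signal of 0.174 and 0.151 in control and of 34.1, 40.5 and 39.5 in TM libraries, that is 6 reads against 2096. The ratio of its reads, scaled by library size, was 242.1 (95% interval 111 to 660.5, counting error only), and the log2 change on the scale of the test was 7.18 (SE 0.20, adjusted p = 2.64e-09, limma). The related Cxcl1 rose from 0.637 and 1.06 to 53.4, 67.6 and 45.7, a change of 5.90 (SE 0.23, adjusted p = 4.64e-08, limma). Ccl20, which attracts lymphocytes and dendritic cells, had 1 read in the controls and 759 in the TM libraries (ratio 526, 95% interval 94.1 to 2.08e+04). The growth factor Csf2 had 0 reads in the controls and 279 in the TM libraries, so that it was at least 33.2-fold higher, against a floor of 3 reads per control library. Cxcl16, a chemokine that is tethered to the membrane, rose from 1.16 and 1.56 to 9.43, 8.85 and 8.57, a change of 2.65. Of 21 chemokines and cytokines tested, 10 were induced, with a median of 1.84. Every TM library lay above the controls in 17 of the 21, against 21.1% of all genes tested. Il1a (2.60, adjusted p = 0.0186), Cxcl10 (1.84, adjusted p = 0.107) and Il6 (1.12) did not pass in limma, and Cxcl12 was at 0.12. Without TM replicate 3 the count was 15 of 21. Cxcl1 and Cxcl2 have closely similar relatives, and how a read that maps to several genes was shared among them is not given in the sources used here.

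NF-kB induces several of its own inhibitors, and 11 of 21 NF-kB subunits and feedback genes were induced, with a median of 1.09. Tnfaip3 (ENSMUSG00000019850), whose product A20 edits ubiquitin chains on the activators of NF-kB, had a signal of 18.0 and 20.2 in control and of 186.9, 154.7 and 160.7 in TM libraries. All TM libraries were far above both controls, and the log2 change was 3.12 (SE 0.16, adjusted p = 3.11e-07, limma). Nfkbia, the inhibitor that holds NF-kB in the cytoplasm, rose from 23.8 and 22.7 to 101.1, 97.5 and 114.6, a change of 2.16. The adaptor Traf1 rose by 2.24 and the co-regulator Bcl3 by 1.69. Among the subunits Relb (1.67), Nfkb1 (1.13) and Nfkb2 (1.00) rose, Rela was at 0.18 and Rel at 1.09 (adjusted p = 0.0341, limma), both short of the threshold. The kinases that release NF-kB, Chuk (0.48), Ikbkb (0.01) and Ikbkg (-0.20), did not pass. The count was 7 without control replicate 3 and 5 without TM replicate 1.

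Of 9 tested genes that the study named for their strain effect in the founders, 8 were induced in xCAST, with a median of 2.08, and Apobec1 (1.31, adjusted p = 0.0175, limma) was not. That list was chosen by the study on other libraries of the same series. The study took it from genes that TM raised in the founders, B6 and CAST among them, so that a rise in xCAST was in part built into the list. Beside the chemokines it holds Pdgfb, a growth factor of mesenchymal cells, at 2.08, the gelatinase Mmp9 at 1.95, Gpat3 at 1.82 and the kinase Plk2 at 1.41. Of 10 genes that the study named for their B6 and CAST alleles, 6 were induced (median 1.12), and since the study chose them on these xCAST samples, this is not independent evidence of their direction. Beside Gadd45a, Hspa5 and Trib3 these were Sesn2, Snhg5 and Hspa9, while Cactin (0.31), Cep76 (0.21), Ccdc80 (-0.11) and Chchd10 (-0.38) did not pass.

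Further lists of stress genes moved in part. Of 20 growth arrest and p53 targets 9 were induced (median 0.48), among them Gadd45b (1.46) and the death receptor Fas (1.41), but the main p53 target Cdkn1a was at 0.05. Of 20 AP-1 and immediate early genes 8 were induced (median 0.72), with Egr1 at 1.46, Myc at 1.25 and Junb at 1.10. Without control replicate 2, control replicate 3, TM replicate 1 and TM replicate 2 in turn, the p53 count was 5, 4, 4 and 5 and the AP-1 count 3, 2, 1 and 3. Of 6 host genes of small nucleolar RNAs 4 were induced (median 1.29), with Snhg12 at 1.88, Snhg1 at 1.84, Snhg5 at 1.42 and Gas5 at 1.16. Whether strand was used in counting is not given in the sources used here, and genes that overlap these could share their reads. Of 14 matrix metalloproteinases and inhibitors Mmp9, Mmp10 (1.47) and Mmp13 (1.41) were induced and the median was -0.02. Without TM replicate 1 the count was 0, and it was 1 without control replicate 2 or TM replicate 2. Of 14 NRF2 targets Slc7a11 and Sqstm1 (0.94) were induced, with a median of -0.05, and the count was 0 without control replicate 2, TM replicate 1 or TM replicate 2 and 1 without control replicate 3.

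Several lists held a single called member. Of 9 mitochondrial chaperones and proteases Hspa9 was induced (0.83, list median 0.49), of 31 genes of DNA replication and mitosis the licensing factor Cdc6 (1.28, median -0.06), of 19 genes of glycolysis and glucose uptake Txnip (1.03, median -0.17), and of 12 BCL2 family genes Pmaip1 (0.82, median 0.04). The share of 3.23% for DNA replication and mitosis was near the 2.52% of all genes, so nothing is read from it for that list. Each of these 4 calls was lost without control replicate 2 and without TM replicate 1, and those of Hspa9, Txnip and Pmaip1 also without control replicate 3. Without TM replicate 3 there were 3 induced mitochondrial chaperones and 2 induced genes of glycolysis, and 2 BCL2 family genes were lowered. Of 13 interferon-stimulated genes (median -0.03) limma, edgeR and DESeq2 called 0, with 2 higher and 2 lower at an unadjusted p below 0.05. Of 14 cytosolic heat shock proteins (median -0.02) these tools called 0 as well, with 2 higher and 4 lower at an unadjusted p below 0.05. Without TM replicate 3 limma called 1 and 2 members of these lists lowered. The heat shock genes Hspa1a and Hspa1b, near-identical copies whose reads may be split, were at -0.74 and -0.79.

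Fewer genes of the fixed lists were lowered than induced, with 4 of the 147 lowered and 102 of the 309 induced genes in any list. Scara3, a scavenger receptor whose mRNA is a known substrate of Ire1, fell from 30.03 and 30.7 to 11.6, 10.8 and 11.5, a log2 change of -1.42 (SE 0.16, adjusted p = 0.000229, limma). The 5 other known decay targets tested did not pass, and lay between Pdgfrb at -0.56 and Bloc1s1 at -0.19. Dhcr7, which makes the last step of cholesterol synthesis, fell from 35.7 and 30.1 to 13.01, 15.3 and 14.9, a change of -1.19, in a list of 23 genes with a median of -0.34. Its call was lost without control replicate 2 or TM replicate 1. Orai1, the pore through which calcium enters to refill the ER, fell from 24.8 and 22.0 to 10.0, 12.3 and 8.502, a change of -1.19, while Rcan1, an inhibitor of calcineurin, rose by 1.19. The call of Rcan1 was lost without control replicate 3, and that of Orai1 without control replicate 2, control replicate 3 or TM replicate 1. Of 29 collagens and matrix proteins 27 lay below 0, with a median of -0.26, but limma and edgeR called 0 of them lowered. DESeq2 called 4, 12 were lower at an unadjusted p below 0.05, and limma called 6 without TM replicate 3. Elastin, Eln, was the lowest at -1.20 (adjusted p = 0.0615, limma).

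Among the 145 lowered genes with a mean signal of at least 2, the 8 with the largest decrease were Ksr1, Fam102a, Lrrc15, Pkd1, Mgat3, Ier5l, Nol4l and Cemip2. Pkd1, which encodes polycystin-1, fell from 443.0 and 511.8 to 188.3, 119.9 and 150.6, a change of -1.66 (SE 0.19, adjusted p = 0.000244, limma). Ksr1, a scaffold of the MAP kinases, fell from 3.99 and 3.22 to 1.23, 0.937 and 0.797, a change of -1.78 at low signal. Mgat3, a Golgi enzyme that adds the bisecting residue to N-glycans, fell from 8.57 and 8.75 to 1.95, 2.95 and 3.59. Cemip2, a hyaluronidase of the cell surface, fell from 78.2 and 81.1 to 29.2, 26.7 and 25.5, a change of -1.55 (SE 0.15, adjusted p = 7.98e-05, limma). In each of these the TM libraries lay below both controls. The calls of Pkd1, Ier5l and Cemip2 held under all 14 alternatives, while that of Fam102a was lost without control replicate 2 and that of Nol4l without control replicate 2 or TM replicate 1. The calls of Ksr1 and Mgat3 were lost without any 1 library other than TM replicate 3, and that of Lrrc15 without control replicate 3, TM replicate 1 or TM replicate 2. Lowered genes had longer transcripts (median 4665 bases) with more GC (56.1%) than all genes tested (3484 bases, 49.7%), while induced genes had a median of 3049 bases and 47.3% GC. The part of length and base composition in the calls was not tested.

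The response of the cross was then set beside that of its parents. The founder and F1 tables were normalized separately, so that only the change from control to TM within each genotype was compared. Of the 308 induced genes tested in the parents, 307 were higher with TM in B6 (48.3% of all genes were) and 307 in CAST (47.1% of all). The rise was at least 1.5 fold for 263 in B6 (85.4%, against 7.29% of all genes) and for 236 in CAST (76.6%, against 8.08%). Of the 147 lowered genes, all were lower in B6 (51.7% of all genes) and 146 in CAST (52.9% of all), by at least 1.5 fold for 118 (80.3%, against 6.58% of all genes) and 71 (48.3%, against 6.09%). The parents share no control libraries with the cross. Their median changes over the induced genes were 0.94 in B6 and 0.88 in CAST, and 1.15 in xCAST, where the genes were chosen for being high. For Hspa5 the change was 2.85 in B6, 2.54 in CAST and 3.14 in xCAST, and for Herpud1 it was 3.96, 4.16 and 4.05. For Ddit3 it was 3.21, 3.59 and 4.16, and for Xbp1 1.24, 1.28 and 1.21.

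Across the 12548 genes tested in all of these genotypes, the xCAST change correlated with that of B6 at r = 0.79 (Spearman's rho 0.78), with that of CAST at r = 0.66 (rho 0.57) and with their mean, the mid-parent change, at r = 0.79 (rho 0.73). The points are genes, which are not independent, and the genes of each axis share its libraries. The correlation with CAST depended on single libraries, since it was 0.50 without CAST control replicate 3 and 0.74 without xCAST TM replicate 3 or CAST control replicate 1. The range with B6 over the libraries left out was 0.73 to 0.80. Leaving out libraries in this way was chosen after seeing the data. The median SD between replicates of a gene was 0.104 in B6, 0.146 in CAST and 0.207 in xCAST (log2). Over all genes the xCAST change lay between those of the parents in 27.8%, beyond B6 in 50.8% and beyond CAST in 21.4%. The median change over all genes was -0.02 in B6, -0.03 in CAST and -0.04 in xCAST, with a median SE of 0.18, 0.18 and 0.16. These shares therefore rest largely on genes whose change was small beside its error, and nothing is read from them.

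**Figure D2:**
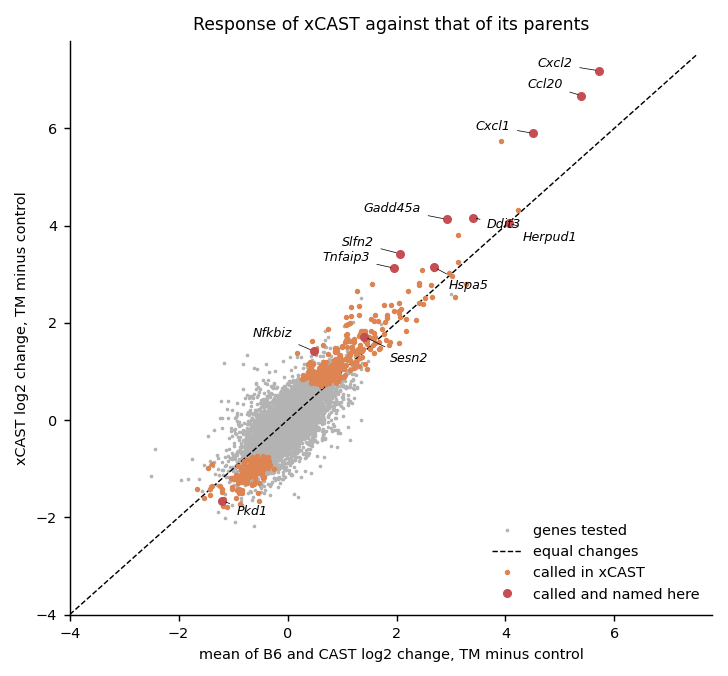
Log2 change in xCAST (y axis) against the mean of the log2 changes in B6 and CAST (x axis) for 12548 genes (grey), with the genes called in xCAST in orange, 12 named genes in red and the line of equal changes dashed. Herpud1 lies on the line, Sesn2 near it, and Cxcl1, Cxcl2, Tnfaip3 and Slfn2 lie above it.

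The difference between the xCAST change and the mid-parent change passed an adjusted p of 0.05 for 1 of 12548 genes (0.00797%, limma), Tnfaip3. It was up by 1.16 (SE 0.15, adjusted p = 0.029, limma) relative to the parents, whose changes were 1.89 in B6 and 2.03 in CAST. In B6 the signal of Tnfaip3 went from 23.1 and 24.7 to 94.96 and 82.9, and in CAST from 34.0 and 38.7 to 140.4 and 157.8. In both parents all TM libraries were above the controls, as in the cross. The difference passed under 10 of 21 alternatives. It did not pass without the trend in the prior variance or without any 1 of 9 single libraries, namely the 4 of B6, both CAST TM libraries, both xCAST controls and xCAST TM replicate 1. The replicate block also ended this call, and whether the replicate numbers pair the libraries of the parents was not tested. With a pseudocount of 1 the genes that passed were Tnfaip3, Cxcl1, Cxcl2, Nfkbiz and Slfn2. At an unadjusted p below 0.05 the change was larger in xCAST for 314 genes (2.5%) and smaller for 403 (3.21%).

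By limma 0 genes passed when xCAST was compared with either parent alone. Against B6 there were 156 genes with a larger (1.24%) and 150 with a smaller change (1.2%) at an unadjusted p below 0.05, and edgeR on reads passed 3, namely Nfkbiz, Sesn2 and Tnfaip3. The limma fits without xCAST TM replicate 2 and TM replicate 3 passed 3 and 5. Against CAST these were 506 (4.03%) and 726 (5.79%), edgeR passed 0 and limma without xCAST TM replicate 3 passed 1. The median SE of these differences was 0.24. Even Tnfaip3, with a change of 3.12 in xCAST, 1.89 in B6 and 2.03 in CAST, did not pass in the main limma fit. The counts of 0 therefore do not show that the responses were equal. The median change of the NF-kB list was 0.56 in B6, 0.60 in CAST and 1.09 in xCAST, and that of the chemokines 1.28, 1.42 and 1.84. For the ER chaperones it was 0.68, 0.47 and 0.81, and for the ATF4 and CHOP targets 0.82, 1.05 and 1.22, while over all genes tested the medians were -0.02, -0.03 and -0.04.

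The parents differed from each other in the response of 1 gene (0.00797%, limma), Sesn2, which encodes Sestrin2, an inhibitor of mTORC1 that Atf4 induces. In B6 its signal went from 93.2 and 100.1 to 154.9 and 152.6, and in CAST from 84.9 and 97.6 to 402.8 and 406.2. Controls of the parents lay side by side and the CAST TM libraries were far above those of B6, with changes of 0.67 and 2.15 and a difference of 1.48 (SE 0.17, adjusted p = 0.0045, limma). In xCAST it rose from 85.8 and 82.6 to 307.0, 249.0 and 275.2, a change of 1.71, which is 70.4% of the way from B6 to CAST. The parental difference passed under 14 of 21 alternatives, and it did not pass without the trend in the prior variance, without B6 control replicate 3 or without any of the 4 TM libraries of the parents. The replicate block ended this call too. At an unadjusted p below 0.05 the change was larger in CAST for 251 genes (2%) and smaller for 179 (1.43%), and edgeR passed 1.

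The 5 crosses share the B6 mother and were normalized together, and the levels of a gene are set side by side below. The study covered far more SNPs in xCAST than in the other crosses. Reads were aligned with up to 3 mismatches, and the part of reads lost from 1 allele in the levels was not tested. Markers of other cell types differed between the crosses. The single skeletal muscle marker listed had a signal of 4.83 to 5.85 in xCAST controls and of 31.1 to 334.2 in the other controls. The neural markers summed to at most 8.69 in xCAST controls and to 2.75 to 137.1 in the others, and the epithelial markers to at most 3.13 and to 0.502 to 26.5. The myeloid markers summed to 15.6 to 17.6 in xCAST controls and to 6.74 to 25.6 in the others. Their part in the differences below was not tested. The xCAST change exceeded the mean change of the other 4 crosses at an adjusted p below 0.05 for 17 of 12757 genes (0.133%), and fell short of it for 0 (limma, with 172 genes higher, 1.35%, and 106 lower, 0.831%, at an unadjusted p below 0.05). By edgeR 13 genes passed, of which 12 were among the 17. In descending order of the difference these were Ccl20 (3.20), Csf2 (3.10), Cxcl1 (2.87), Slfn2 (2.84), Cxcl2 (2.75), Mmp9 (1.83), Cxcl16 (1.55), Tnfaip3 (1.49), Stx11 (1.17), Nfkbiz (0.94), Il1rl1 (0.92), Errfi1 (0.88), Serpinb2 (0.86), Nfkbia (0.77), Vcam1 (0.71), Plk2 (0.68) and Kctd11 (0.57). All 17 were induced in xCAST, and 8 of them belong to the lists of chemokines and NF-kB genes. The xCAST change was the highest of the 5 crosses for all 17 (11.9% of all genes tested) and above both parents for 16 (32.3% of all genes). Since the same xCAST libraries chose these genes for a high change, both counts are descriptions and nothing is read from them.

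**Figure D3:**
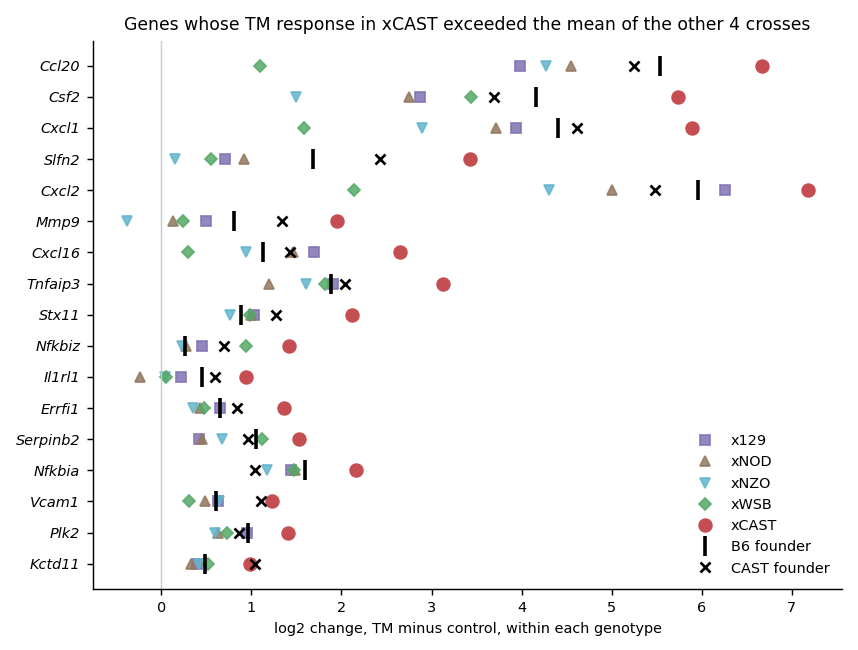
Log2 change from control to TM (x axis) of the 17 genes (y axis) in xCAST (red circles), in the other 4 crosses and in the B6 (bar) and CAST (cross) founders, each within its own genotype. The red circles are the furthest right of the 5 crosses in every row, and the founders lie left of them except for CAST in Kctd11.

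Tnfaip3, Cxcl1 and Slfn2 passed under all 35 alternatives. For Tnfaip3 the xCAST controls (18.0 and 20.2) lay at the low end of the other 12 controls (18.8 to 37.0), and the 3 TM libraries (154.7 to 186.9) lay above all 11 other TM libraries (58.2 to 125.8). The changes in x129, xNOD, xNZO and xWSB were 1.90, 1.20, 1.603 and 1.81, and the difference was 1.49 (SE 0.16, adjusted p = 3.35e-05, limma). For Cxcl1 the TM libraries in xCAST (45.7 to 67.6) lay above those of the other crosses (12.1 to 37.1), and the xCAST controls (0.637 and 1.06) overlapped with the low end of the others (0.811 to 9.96), of which the 3 xWSB controls were the highest. Slfn2, a member of the Schlafen family, rose from 0.868 and 0.603 to 7.99, 8.88 and 9.43 in xCAST, while xNOD and xWSB had controls of 4.11 to 8.19 and TM libraries of 8.54 to 12.4, and in x129 and xNZO no library exceeded 1.92. The TM level of Slfn2 in xCAST was thus within the range of the other crosses.

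The 17 genes differed in whether TM or control libraries set xCAST apart. The same libraries chose these genes, so the counts below are descriptions, and their shares over all genes tested are not given here. For 7 of them every xCAST TM library was above all 11 TM libraries of the other crosses, namely Cxcl1, Cxcl2, Tnfaip3, Stx11, Il1rl1, Errfi1 and Nfkbia. Stx11 and Il1rl1 were named after their values were seen. Cxcl2 reached 34.1 to 40.5 in xCAST against 1.50 to 9.001 elsewhere, and Stx11, a SNARE protein of vesicle fusion, 14.9 to 17.9 against 4.16 to 9.66. For Il1rl1, the receptor of interleukin-33, the xCAST controls (142.5 and 162.6) were above all other controls as well (19.1 to 112.2). For 6 genes both xCAST controls were below all 12 other controls, namely Ccl20, Mmp9, Cxcl16, Nfkbiz, Vcam1 and Plk2. Plk2, a polo-like kinase, rose from 116.1 and 119.5 to 325.3, 316.5 and 299.2 in xCAST, while the other crosses had controls of 247.8 to 477.7 and TM libraries of 411.3 to 776.4. The adhesion molecule Vcam1 was likewise below the other crosses in control (10.5 and 10.7 against 29.8 to 125.4) and with TM (23.6 to 27.8 against 45.0 to 132.0). For 7 genes the xCAST controls lay within the range of the others.

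**Figure D4:**
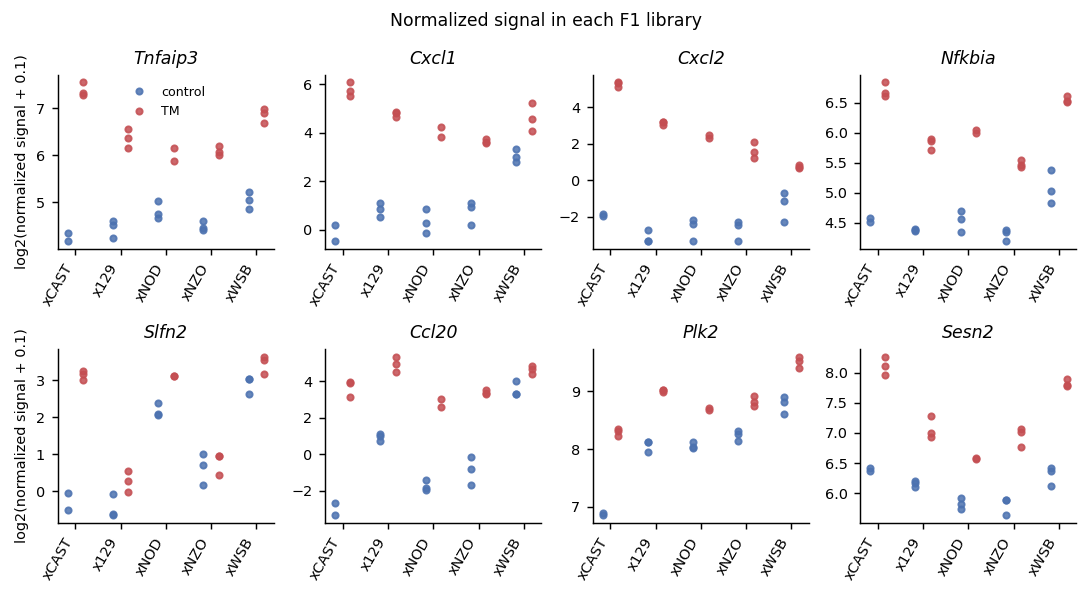
Log2(normalized signal + 0.1) of 8 genes (panels, y axis) in each control (blue) and TM (red) library of the 5 crosses (x axis). In Tnfaip3, Cxcl1 and Cxcl2 the xCAST TM points are the highest, in Ccl20 and Plk2 the xCAST controls are the lowest, and in Slfn2 the xCAST points go from the level of x129 to that of xNOD.

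Single xCAST libraries decided how many genes passed. Without xCAST control replicate 2, control replicate 3, TM replicate 1 and TM replicate 2 in turn the count was 5, 6, 8 and 10, and the genes that remained without any of the libraries were Ccl20, Cxcl1, Slfn2 and Tnfaip3. Ccl20, which had 1 read in the xCAST controls, did not pass with a pseudocount of 1 (adjusted p = 0.0828, limma), and by edgeR its difference was 5 on the log2 scale (adjusted p = 0.0114). That of Csf2 was 5.76 by edgeR. Cxcl2 and Csf2, whose control signal in the other crosses was at most 0.502 and 0.251, did not pass in edgeR on reads (adjusted p = 0.9999 and 0.72), nor did Cxcl16, Errfi1 and Vcam1 (adjusted p from 0.058 to 0.076).

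The changes of the founders bear on the same 17 genes in libraries that the comparison did not use. The CAST change was above the mean of the 129S1Sv/ImJ, NOD/ShiLtJ, NZO/H1LtJ and WSB/EiJ changes for 14 of the 17 (50.7% of all genes). A low 129S1Sv/ImJ change can pull that mean down, so a change above it need not be above each strain. For Ccl20 the change was 2.00 in 129S1Sv/ImJ, 4.44 in NOD/ShiLtJ, 5.16 in NZO/H1LtJ and 5.72 in WSB/EiJ, with CAST at 5.25. The B6 change was above that mean for 10 of the 17 (53% of all). The median excess of CAST over that mean was 0.21 for the 17 genes and 0.004 for all genes. For Cxcl1 the CAST change (4.62) was above those of 129S1Sv/ImJ (1.89), NOD/ShiLtJ (3.77), NZO/H1LtJ (4.14) and WSB/EiJ (4.45). For Tnfaip3 it (2.03) was above 129S1Sv/ImJ (0.90) and WSB/EiJ (1.53) but below NOD/ShiLtJ (2.05) and NZO/H1LtJ (2.51). By list, the median change of the chemokines was 1.74 in xCAST, 1.13 in x129, 1.24 in xNOD, 0.69 in xNZO and 0.23 in xWSB, and the xCAST change was above the mean of the others for 20 of 22 members, against 6551 of all 12757 genes. For the NF-kB list these medians were 1.09, 0.54, 0.42, 0.46 and 0.46, with 20 of 21 members above. The test of the difference was passed by 5 of the 22 and 3 of the 21 members, against 0.133% of all genes. These members are among the 17 genes above.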

How the data were processed

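RNA was sequenced in 100-base single-end reads. By the methods of the study, the authors trimmed reads with Trimmomatic, aligned them with TopHat to strain-specific genomes with up to 3 mismatches (the submitters' processing notes name GRCm38 and mm10), took all mapped reads for total expression, scaled libraries with TMM of edgeR, left out libraries that lay apart from their condition in a principal component analysis, and then normalized again. The deposited values, named FPKM by the authors, are whole multiples of 1 step per library and hold no division by length, so they were treated as normalized signal and whole reads were recovered (100% of xCAST values within 0.01). The founder set and the F1 set were normalized separately. The 3 lines that name no gene held 15.5% to 19.5% of the xCAST signal and were dropped. Values are the sum of both alleles. Fold changes, differences and the gene lists were computed here from the deposited signal.

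limma (3.58.1, trend in the prior variance) was fitted to log2(signal + 0.1) of genes at 0.5 or more in at least 2 libraries, separately for the 5 xCAST libraries, for B6, CAST and xCAST together (12548 genes, 13 libraries) and for the 28 F1 libraries (12757 genes). Calls needed a Benjamini-Hochberg adjusted p below 0.01 and 1.5 fold, and differences between genotypes 0.05. The design had assumed FPKM, and the same test was kept. edgeR (4.0.16) and DESeq2 (1.42.0) on recovered reads were alternatives. Genes were named by rule. These were 9 canonical UPR genes, and the 8 most raised and 8 most lowered calls with a mean signal of at least 2. Up to 4 called members of each list with the largest change were named too. Members given as not passing and genes past the test of a difference were added. Ratios of few reads carry exact intervals, and intervals cover counting error only. The members and the lists were chosen with earlier results of these data known. Scripts were tested on simulated data. Transcript length and GC were those of the longest transcript in GENCODE M21. 1 gene of the lists is not reported here. Depth sets the precision of genes with few reads.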

Additional observations from a re-analysis of the deposited data

Results flagged for a closer look

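The response to TM was larger in xCAST than the mean response of the other 4 crosses for 17 genes, by an interaction term in limma. The differences, on the log2 scale, were 3.20 for Ccl20, 3.10 for Csf2, 2.87 for Cxcl1, 2.84 for Slfn2, 2.75 for Cxcl2, 1.83 for Mmp9, 1.55 for Cxcl16 and 1.49 for Tnfaip3. They were 1.17 for Stx11, 0.94 for Nfkbiz, 0.92 for Il1rl1, 0.88 for Errfi1, 0.86 for Serpinb2, 0.77 for Nfkbia, 0.71 for Vcam1, 0.68 for Plk2 and 0.57 for Kctd11. Errfi1 and Vcam1 passed under 11 of 35 alternatives.

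The response of Tnfaip3 was larger in xCAST than the mean of its parents by 1.16. The response of Sesn2 was larger in CAST than in B6 by 1.48. No xCAST group held the 4 libraries that a test for a stray library needs.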

How the results depend on the processing

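There were 309 induced and 147 lowered genes in xCAST. With a prior variance that had no trend the counts were 130 and 38, with DESeq2 590 and 336, in 1 fit over the 28 F1 libraries 504 and 287, and at an adjusted p below 0.05 701 and 635. Leaving out 1 library gave 103 to 873 induced and 14 to 724 lowered genes. Both extremes on the high side were without TM replicate 3. The pseudocount, filters and edgeR moved these counts by less than 1.5 times, with 340 and 128 under median-of-ratios scaling. The factors of that scaling differed by -0.03 (log2, TM minus control), and dividing by them raises each change by that size.

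The difference from the mid-parent response passed for 5 genes with a pseudocount of 1, 2 in 1 fit over all 68 libraries, 0 without the trend, 0 at an adjusted p below 0.01 and 0 to 3 with 1 library left out. The difference of CAST from B6 passed for 0 genes without the trend and 0 to 2 with 1 library left out. That of xCAST from B6 passed for 5 genes with a pseudocount of 1, 3 with median-of-ratios scaling, 3 with edgeR, 3 over all 68 libraries and 0 to 5 with 1 library left out. That of xCAST from CAST passed for 1 gene with a pseudocount of 1, 3 over all 68 libraries and 0 to 1 with 1 library left out. Against the other 4 crosses 17 genes passed with a pseudocount of 1, of which 14 were among the 17 named, without Ccl20, Cxcl16 and Vcam1, and 7 genes passed at an adjusted p below 0.01 and 5 to 22 with 1 library left out, where the low end was without xCAST control replicate 2 and the high end without xNZO control replicate 3. The change of Dpagt1 turned from -0.12 to 0.19 without TM replicate 3, and ranged down to -0.30 with another library left out. The cause of these shifts was not tested.

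A fit with the replicate number as a block gave 269 induced and 204 lowered genes in xCAST, 0 genes in each comparison with the parents and 18 against the other crosses. Same-numbered libraries did not deviate together in xCAST (correlations of -0.165 and -0.336), where only 2 controls enter. The correlation was above 0.1 in 4 of 13 pairs of the F1 set. These were xNOD replicate 1 (0.29) and xWSB replicates 1 to 3 (0.26, 0.17 and 0.12). Pairing in the founder libraries was not tested, so the block fit is not set aside for the comparisons with the parents.

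Of the values of single named genes under the alternatives, 1661 kept their direction and side of the threshold, 271 fell short of it, 3 passed it anew (all of Apobec1) and 1 turned. With 2 control libraries from 1 mix of cells, the spread between litters is unknown, and genes with few control reads have wide intervals.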
